A study of Mus musculus with 8 samples.

Results

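The genes described here encode the proteins of the cytosolic ribosome. They were chosen by symbol: every named gene of the deposited count table whose symbol is Rpl, Rplp or Rps followed by a number and at most one final a, l or x, together with Rpsa. The rule took 83 of 55487 named genes, 51 with a large subunit symbol and 32 with a small subunit symbol. Of these, 76 are called core members below, and 7 carry a final l for "like" and are called paralogues (Rps27l, Rps4l, Rpl3l, Rpl6l, Rpl10l, Rpl32l and Rpl39l). RNA came from ileal crypt cells of C57BL/6 mice, and no genetic alteration is named for either group. Crypts are the epithelial pits between the villi, where stem cells divide beside Paneth cells. The comparison sets 4 libraries from mice given CPT-11 at 20 mg/kg over 7 days (irinotecan, whose active form traps topoisomerase I on DNA) against 4 libraries from mice given vehicle, whose composition is not given in the labels, nor are the ages of the mice. Whether each library is a mouse of its own is not stated in the labels. The p-values therefore reflect only how much these libraries vary, and that variation may be technical.

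Ribosomal proteins assemble with ribosomal RNA into a small subunit, which reads the messenger RNA, and a large subunit, which joins the amino acids. Their messenger RNAs are among the most abundant of a growing cell and begin with a run of pyrimidines, the terminal oligopyrimidine (TOP) motif, through which mTORC1 and LARP1 govern their translation. Rpl5 and Rpl11 bind and inhibit Mdm2, the ubiquitin ligase that keeps p53 low, when they are not built into ribosomes, and several other ribosomal proteins have been described to bind it too. Rps27l is a paralogue of Rps27, and is known as a gene that p53 induces. In the crypt, irinotecan damages the DNA of dividing cells, which is the setting in which the paralogues and the core set were compared.

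The coding sequences of Rps27l and Rps27 are shown because the results turn on telling this pair apart. Both are 255 bases long in GENCODE M21 (GRCm38.p6), and 61 bases differ, which leaves 76.1% identity and touches 54 of 85 codons. Capitals mark the differing bases.
Rps27: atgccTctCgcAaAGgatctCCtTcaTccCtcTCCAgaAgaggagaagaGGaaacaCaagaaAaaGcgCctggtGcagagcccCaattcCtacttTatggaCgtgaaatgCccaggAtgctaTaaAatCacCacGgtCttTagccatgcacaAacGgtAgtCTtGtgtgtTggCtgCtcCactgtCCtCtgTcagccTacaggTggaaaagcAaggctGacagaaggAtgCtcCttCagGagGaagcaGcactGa
Rps27l: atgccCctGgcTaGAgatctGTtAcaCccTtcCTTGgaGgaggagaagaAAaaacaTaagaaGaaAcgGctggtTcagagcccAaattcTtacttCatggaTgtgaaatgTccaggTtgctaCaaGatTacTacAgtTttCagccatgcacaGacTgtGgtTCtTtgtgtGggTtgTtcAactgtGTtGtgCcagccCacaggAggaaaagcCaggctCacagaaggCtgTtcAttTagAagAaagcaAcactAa
Rps27l (ENSMUSG00000036781) lies on the plus strand at chr9:66946086-66949516, and Rps27 (ENSMUSG00000090733) on the minus strand at chr3:90212522-90213651.

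The bases around the transcription starts are shown for the same pair and for Rpl5, because the TOP motif is what these messenger RNAs are known to share. Each window holds 40 bases centred on the start given by RefSeq for GRCm38.p6, and capitals mark the longest run of C and T.
Rps27, chr3:90213629-90213668, minus strand: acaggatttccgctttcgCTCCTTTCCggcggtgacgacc
Rps27l, chr9:66946066-66946105, plus strand: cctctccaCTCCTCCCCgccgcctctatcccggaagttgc
Rpl5, chr5:107900508-107900547, plus strand: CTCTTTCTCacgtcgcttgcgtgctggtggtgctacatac
Each of these runs is 9 bases long. The run spans the RefSeq start in Rps27 and lies upstream of it in Rps27l and Rpl5, so the last pair of runs is not the beginning of the transcript as RefSeq annotates it. For Rpl5 the annotations differ, since GENCODE starts the gene at chr5:107900502, just before the run. A second RefSeq start of Rps27l had a longest run of 4 bases, and that of Rplp0 one of 7. RefSeq windows were matched for 56 core members, several with further starts. Of the 66 windows, 29 (43.9%) held a run of at least 8 bases of C or T, read in the sense direction of the gene. The same was true of 16.0% of all 32851 windows. A run of these letters is a description of the window and shows no regulation.

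Total counts on named genes ranged from 20670728 to 23323653 per library, and between 19029 and 20147 named genes had a count. CPT-11 replicates 2 and 4 stood apart in that short genes were high and long genes low in them, and replicate 2 was also the library with the lowest TMM scaling factor (0.731, against 0.977 to 1.10 in the other 7). The preparation was not sorted, so markers of other cells were read beside the members. Summed crypt base stem cell markers were lower in CPT-11 (490 to 739 CPM, against 1564 to 1868 in vehicle), and 4 of the 8 fell. Summed enterocyte markers were higher (22124 to 66155 CPM, against 13214 to 21166) and 2 of 12 rose, while the Paneth and goblet cell sums overlapped between the groups. Such sums are carried by the most abundant genes. Olfm4 alone was at 1149 to 1366 CPM in vehicle and 279 to 427 CPM in CPT-11. Apoa1 and Fabp2 were at 30213 and 19046 CPM in CPT-11 replicate 2. Among B and plasma cell markers 4 of 8 rose, and the sums overlapped (11.1 to 43.8 CPM in vehicle, from 25.5 CPM upward in CPT-11). Of the macrophage and dendritic cell markers 1 of 9 rose, and of the T cell (8 tested) and stromal (6 tested) markers none passed the test. Over all 14011 genes tested, 2.98% rose and 2.52% fell at an adjusted p below 0.05 in edgeR's quasi-likelihood test. No marker on these lists was at 0 in every library, and in bulk RNA fewer cells of a type and less RNA per cell cannot be told apart.

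Of the 83 members, 78 passed the expression filter and were tested: all 76 core members, Rps27l and Rps4l. In edgeR's quasi-likelihood test 1 member rose, Rps27l, and 0 fell at an adjusted p below 0.05, where 2.98% of all 14011 genes tested rose and 2.52% fell. At an unadjusted p below 0.05, 3 members were higher (Rps27l, Rps13 and Rpl10) and 0 lower, against a background of 13.4% and 11.2%. DESeq2 called these 3 as rises and 0 falls, with 7.46% of all genes called as rises. The groups did not overlap for 2 members, Rps27l and Rpl10, both with CPT-11 above vehicle, while 8.41% of all genes lay wholly above and 10.1% wholly below. The remaining 5 members had almost no reads. Rpl3l, the muscle paralogue of Rpl3, had 5 counts in CPT-11 replicate 4 alone. Rpl39l had 2 counts in vehicle replicate 4 and 1 in CPT-11 replicate 2, and the processed pseudogene Rpl6l had an estimated 3.62 counts in CPT-11 replicate 4. Rpl10l and the processed pseudogene Rpl32l had 0 counts in every library, so they were not detectable at this depth.

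Rps27l was measured at 117.5, 127, 149 and 125 CPM (library-size normalised counts, with TMM scaling) in vehicle replicates 1 to 4, and at 229, 439, 165 and 252 CPM in CPT-11 replicates 1 to 4. Every CPT-11 library lay above every vehicle library, with replicate 2 the highest and replicate 3 the nearest to vehicle. The means were 129 ± 13.6 CPM in vehicle and 271 ± 118 CPM in CPT-11 (SD, n = 4 each), a log2 fold change of 1.07 (SE 0.26) or 2.09-fold, with an adjusted p of 0.0474 in edgeR's quasi-likelihood test. The call sits close to the threshold: it was lost when any 1 vehicle library was left out (adjusted p from 0.112 to 0.143) and without CPT-11 replicate 1 (0.0758) or replicate 4 (0.0865). Without CPT-11 replicate 2 the log2 fold change was smaller, at 0.74, and the adjusted p was 0.0139.

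Rps27, its partner in the small subunit, did not pass the test. Its levels were 287, 350, 401 and 355 CPM in vehicle and 326, 555, 264 and 420 CPM in CPT-11. The groups overlapped, with both the highest and the lowest library in the CPT-11 group. The means were 348 ± 47.1 and 391 ± 126 CPM (SD, n = 4 each), a log2 fold change of 0.17 (SE 0.23, adjusted p = 0.664).

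The ratio of Rps27l to Rps27 is taken within a library and so does not depend on scaling. It was 0.410, 0.362, 0.371 and 0.351 in vehicle replicates 1 to 4, and 0.703, 0.792, 0.624 and 0.600 in CPT-11 replicates 1 to 4. The lowest CPT-11 ratio was above the highest vehicle ratio, and the 4 CPT-11 ratios were closer to each other than the levels of either gene. On the log2 scale the ratio was higher by 0.86 in CPT-11, 1.81-fold (exact two-sided permutation test, p = 0.0286, the smallest that 4 against 4 libraries allow, 0.0476 after adjustment over the 5 pairs compared).

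**Figure D1:**
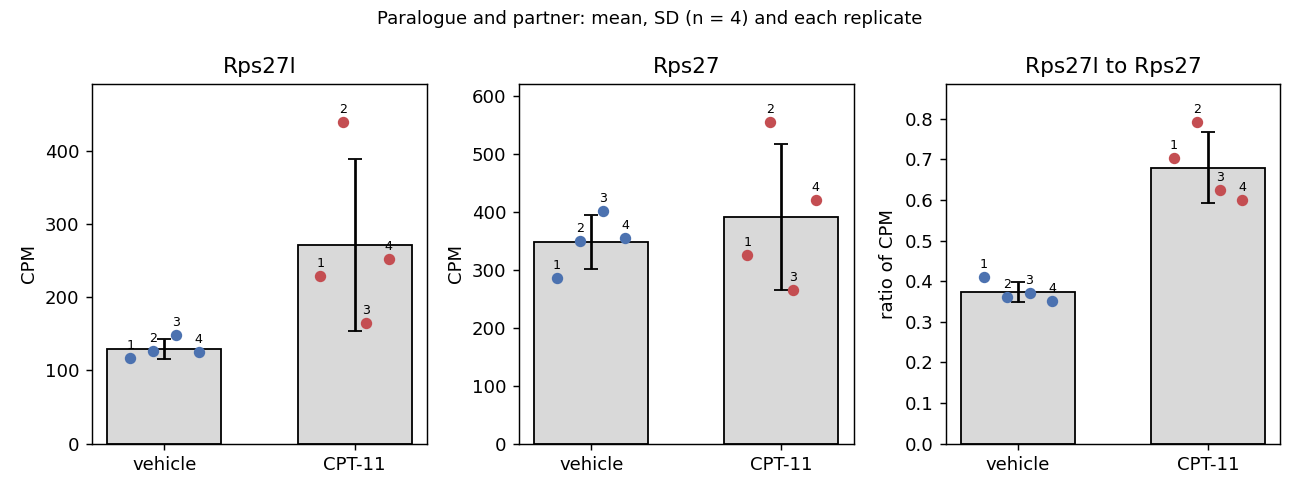
Rps27l (left, CPM), Rps27 (middle, CPM) and their ratio (right) in vehicle and CPT-11 libraries; bars are means, error bars SD (n = 4 each) and numbered points the replicates. Rps27l and the ratio show no overlap between groups (ratio 0.351 to 0.410 against 0.600 to 0.792), whereas Rps27 overlaps.

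Taken as deviations from vehicle, Rps27l stood above the core median in each CPT-11 library. Deviations were taken for each gene as its log2 CPM in a library minus its mean log2 CPM in vehicle. Each gene's vehicle deviations therefore average out by construction, and only their spread between libraries is informative. In level, Rps27l (mean 129 CPM in vehicle) lay below the median of the core members (608 CPM). The deviation of Rps27l minus the median deviation of the 76 core members was -0.01, 0.01, 0.07 and -0.07 in vehicle replicates 1 to 4, and 0.88, 1.0, 0.78 and 0.58 in CPT-11 replicates 1 to 4. No core member deviated as much as Rps27l in CPT-11 replicates 1 and 3. In replicate 2 a pair of core members did (Rps13 and Rpl41), and in replicate 4 only Rps13.

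Other paralogues differed less from their partners. Rpl22l1, the paralogue of the large subunit protein Rpl22, and Rpl36al, the paralogue of Rpl36a, fall outside the symbol rule but were compared as pairs. The ratio of Rpl22l1 to Rpl22 was 0.193 to 0.217 in vehicle and 0.248 to 0.269 in CPT-11, higher by 0.33 on the log2 scale. The ratio of Rpl36al to Rpl36a was 0.709 to 0.732 in vehicle and 0.813 to 0.876 in CPT-11, higher by 0.23 on the log2 scale. Neither pair overlapped between groups, and both reached the smallest p that the exact two-sided permutation test allows (p = 0.0286, adjusted 0.0476). As single genes, Rpl22l1 (log2 fold change 0.51, adjusted p = 0.209) and Rpl36al (0.46, adjusted p = 0.172) did not pass edgeR's test. Table lengths were 552 bases for Rpl22l1 and 2051 for Rpl22, 526 for Rpl36al and 483 for Rpl36a, and 575 for Rps27l and 345 for Rps27. The length trend described below was not removed from these ratios.

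The remaining pairs overlapped between the groups. Rps4l, which GENCODE lists as a transcribed processed pseudogene, was measured at 59.3 ± 9.88 CPM in vehicle and 56.3 ± 15.9 CPM in CPT-11 (log2 fold change -0.08, adjusted p = 0.832, edgeR). Its log2 ratio to Rps4x, the small subunit protein encoded on the X chromosome, was lower by 0.29 in CPT-11 (exact two-sided permutation test, p = 0.171, adjusted 0.214). The log2 ratio of Rpl7l1, a nucleolar relative of the large subunit protein Rpl7, to Rpl7 differed by -0.17 (exact permutation p = 0.686, adjusted 0.686). Here the paralogue is the longer gene, with a table length of 2606 bases against 838 for Rpl7. The coding sequences of the compared pairs were 87.9% identical for Rpl36al and Rpl36a, 67.7% for Rpl22l1 and Rpl22, and 55.5% for Rpl7l1 and Rpl7.

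None of the 76 core members passed the test in either direction. Their log2 fold changes ran from -0.16 to 1.41 with a median of 0.23, while the median over all genes tested was 0.01. The sign was positive for 72 core members and negative for 4. The median was 0.25 for the 30 small subunit core members and 0.23 for the 46 of the large subunit, so the subunits gave nearly the same value. Mean levels in vehicle ranged from 32.6 to 2224 CPM with a median of 608 CPM.

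The CPT-11 libraries lay far apart in their core levels. The median core deviation was -0.13, -0.03, 0.14 and 0.02 in vehicle replicates 1 to 4, but -0.05, 0.77, -0.42 and 0.38 in CPT-11 replicates 1 to 4. CPT-11 replicate 2 was the highest of the 8 libraries for 66 core members, and replicate 3 the lowest for 73. In replicate 4, 73 core members were above every vehicle library, and in replicate 3, 74 were below every vehicle library. The core members thus moved up or down together within a library, in opposite directions in libraries of the same group. Their coefficient of variation had a median of 8.10% in vehicle and 35.1% in CPT-11. Summed over all members, the share of a library's counts was 5.16%, 5.14%, 5.84% and 5.53% in vehicle, and 5.22%, 6.37%, 4.20% and 6.45% in CPT-11. This share uses no TMM scaling, and by it replicate 4 was slightly above replicate 2. The CPM ranks and deviations do depend on that scaling, whose factor was lowest in replicate 2 (0.731).

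**Figure D2:**
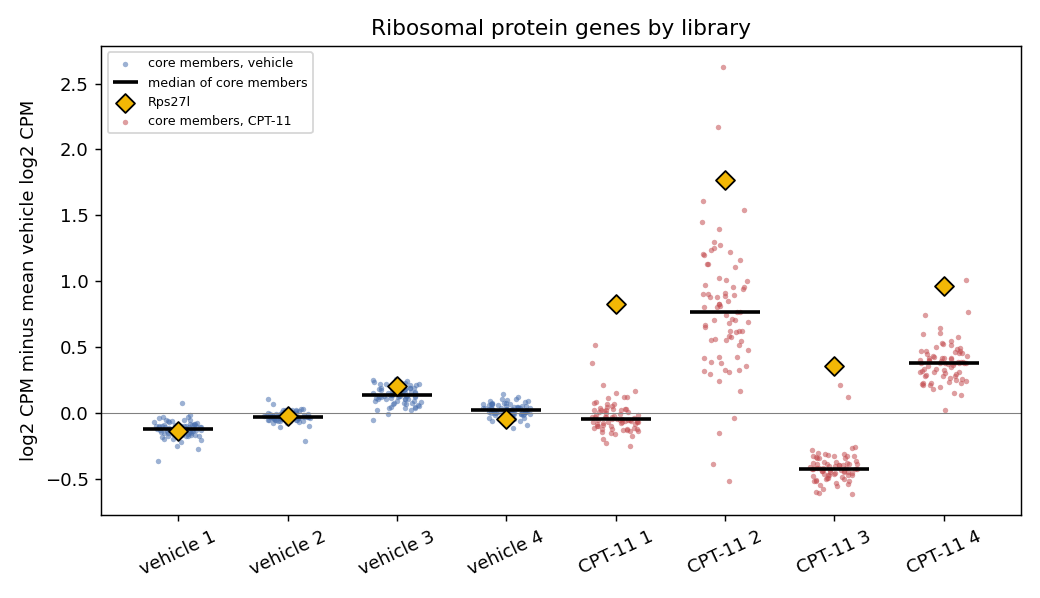
Deviation from the mean vehicle level (log2 CPM) of the 76 core members in each library (dots), with their median (black line) and Rps27l (diamond). The core median lies within -0.13 to 0.14 in vehicle and runs from -0.42 to 0.77 in CPT-11, and Rps27l stands 0.58 to 1.0 above it in the 4 CPT-11 libraries.

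The members that broke this pattern were few, and are named here because their values set them apart. Rpl4, Rpl7a and Rps3 were below every vehicle library in CPT-11 replicate 2, where 72 core members were above every vehicle library. Rpl4, the core member with the longest coding sequence (1260 bases), was measured at 1392, 1400, 1478 and 1514 CPM in vehicle and at 1389, 1007, 1116 and 1676 CPM in CPT-11. It was lowest in replicate 2, highest in replicate 4, and gave a log2 fold change of -0.16 (SE 0.19, adjusted p = 0.626, edgeR). Rpl7a and Rps7 had the same estimate of -0.16, with adjusted p-values of 0.590 and 0.599, and Rps3, which lines the mRNA entry channel of the small subunit, one of -0.13 (adjusted p = 0.679).

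At the other end stood Rpl41, which encodes the smallest protein of the large subunit from a coding sequence of 78 bases. Its levels were 984, 1092, 1268 and 1133 CPM in vehicle and 1251, 5019, 902 and 1866 CPM in CPT-11. Replicate 2 was far above all others and replicate 3 below every vehicle library. Its log2 fold change was 1.01 (SE 0.47) and missed the threshold (adjusted p = 0.212, edgeR), and without CPT-11 replicates 2 and 4 it was -0.05.

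Across the core set, the deviation in CPT-11 replicate 2 was graded by coding length. Its median deviation was 0.93 for the 24 core members with fewer than 400 coding bases, 0.69 for the 31 with 400 to under 600, and 0.43 for the 21 with 600 or more. In CPT-11 replicates 1, 3 and 4 the same 3 classes gave -0.03 to -0.06, -0.43 to -0.40, and 0.38 to 0.39. Over the 76 core members of a library, Pearson's r between deviation and log2 coding length was -0.53 in replicate 2 (Spearman's rho -0.44), and -0.23, 0.02 and -0.26 in replicates 1, 3 and 4. These correlations are across genes that share a library and are given as a description.

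All genes showed a length trend in the same libraries. By the length given in the deposited table, the core members are short: their median is 789.5 bases, against 2708 over all genes tested. In CPT-11 replicate 2 the median deviation over all genes was 1.11 for lengths of 500 to under 750 bases (458 genes) and -0.59 for 5000 bases or more (2206 genes), and in replicate 4 it was 0.38 and -0.39. The core members of 500 to under 750 bases (23 genes) were at 0.82 and 0.38 in these libraries, below all genes of that class in replicate 2 and level with them in replicate 4. In the class of 750 to under 1000 bases (21 core members) the core median was 0.71 against 0.88 in replicate 2 and 0.38 against 0.36 in replicate 4. From 1000 bases upward, core members lay above all genes of their length in both of these libraries. In the class of 1000 to under 1500 bases (13 core members) the core median was 0.71 against 0.58 in replicate 2 and 0.38 against 0.27 in replicate 4. In the class of 1500 to under 2500 bases (7 core members) it was 0.33 against 0.17 and 0.37 against 0.13. In CPT-11 replicate 3 the trend was weaker and opposite in sign. At 500 to under 750 bases it gave -0.16 for all genes and -0.44 for core members. In replicate 1 the values for the class of 500 to under 750 bases were 0.12 and -0.04.

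**Figure D3:**
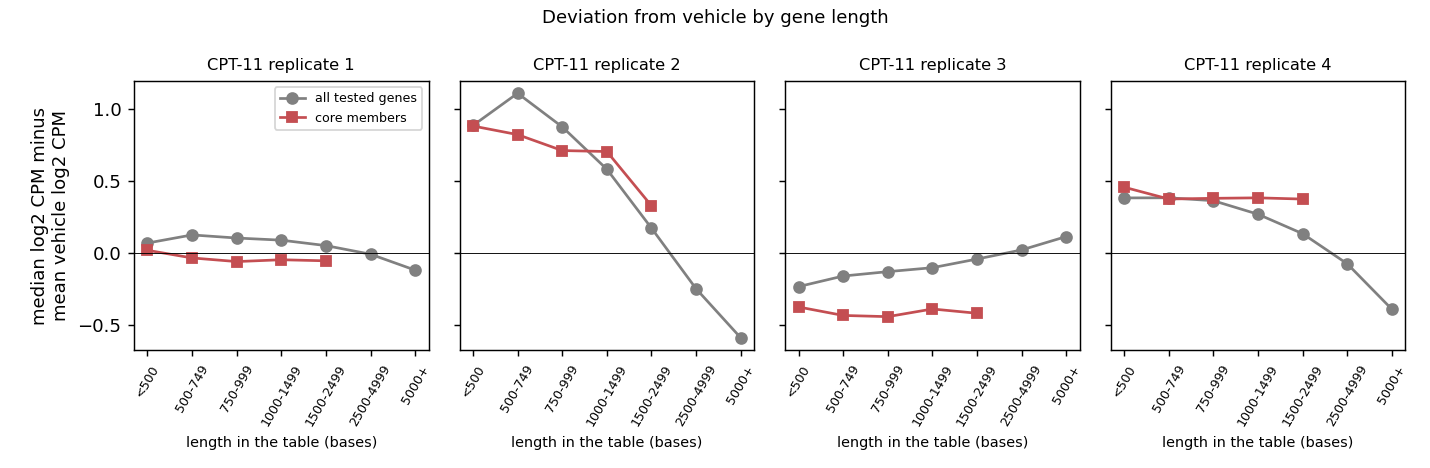
Median deviation from the mean vehicle level (log2 CPM) by gene length in the deposited table (bases), for all genes tested (grey) and core members (red, 10, 23, 21, 13 and 7 genes in the first 5 classes), in the 4 CPT-11 libraries. In replicate 2 core members lie below all genes at 500 to under 750 bases (0.82 against 1.11) and above them at 1500 to under 2500 (0.33 against 0.17), in replicate 4 they are near 0.38 in all classes but the first (0.46), and in replicates 1 and 3 they lie below all genes.

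Rps27l has a table length of 575 bases, so it belongs to the class of 500 to under 750. Its deviations in CPT-11 replicates 1 to 4 were 0.83, 1.77, 0.36 and 0.97, all above the class medians of 0.12, 1.11, -0.16 and 0.38. When each library's trend on length was removed, Rps27l had a log2 fold change of 0.63 and an adjusted p of 0.0047 (edgeR), while the core median turned to -0.12, with 23 core members positive and 53 negative. Leaving out CPT-11 replicates 2 and 4 together gave 0.61 for Rps27l (adjusted p = 0.0218) and a core median of -0.23, with 2 positive and 74 negative. The sign of the core median therefore differed between settings: it was negative in 3 of the 22 alternatives and ranged from -0.23 to 0.39. The gap between Rps27l and the core median ranged from 0.74 to 0.92 over the same 22, and Rps27l passed the test in 15 of them.

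**Figure D4:**
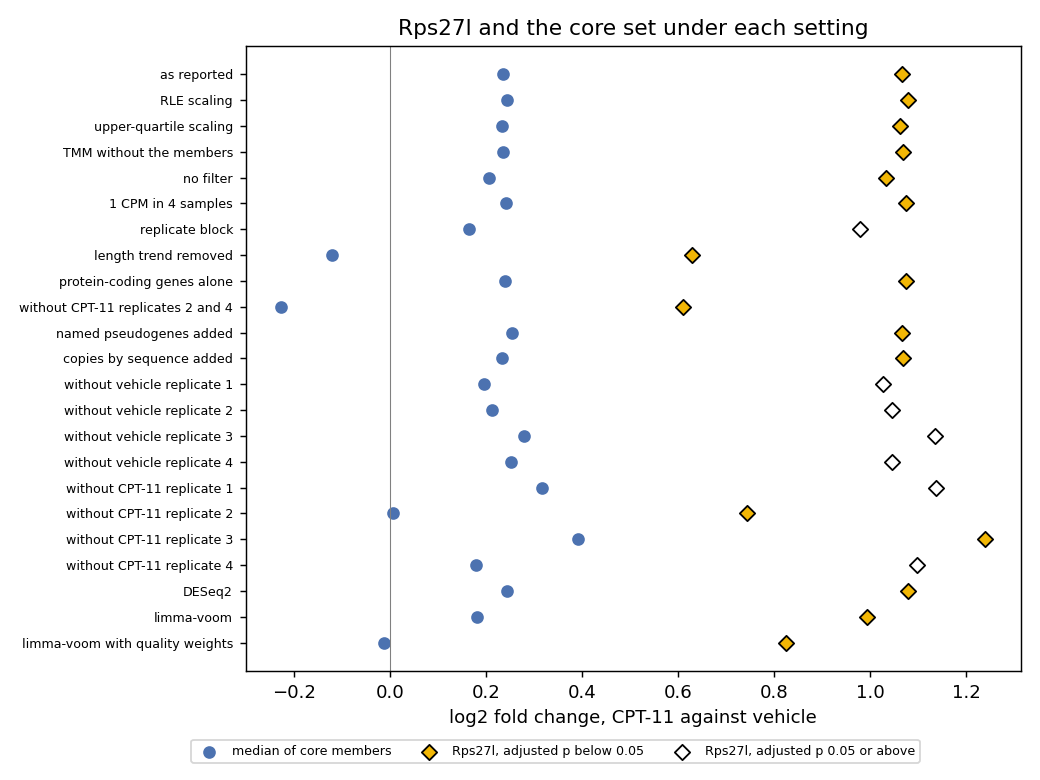
Log2 fold change (CPT-11 against vehicle) of Rps27l (diamonds, filled where the adjusted p was below 0.05) and the median of the core members (circles) as reported and under 22 alternative settings. The core median changes sign, from -0.23 to 0.39, and Rps27l stays between 0.61 and 1.24.

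Markers of other cells also differed between the CPT-11 libraries. The median deviation of the 7 goblet cell markers was -0.06, 1.43, -0.29 and 0.83 in CPT-11 replicates 1 to 4, which places the libraries in the same order as the core median for replicates 2, 4, 1 and 3 from high to low. The medians of the Paneth, T cell, B and plasma cell, and macrophage and dendritic cell markers gave that order too, so it is not particular to goblet cells. For macrophage and dendritic cell markers, replicates 4 and 1 were almost level (0.618 and 0.616). For Paneth cell markers the medians were -0.73, 0.36, -0.79 and -0.28 in replicates 1 to 4. The enterocyte (0.48, 1.04, 0.73 and -0.03), stromal (0.85, 0.10, 2.19 and 0.70) and stem cell (-0.46, -1.08, -0.34 and -0.61) medians gave other orders. Median table lengths were 784 bases for goblet and 888.5 for Paneth cell markers, near the 789.5 of the core members. They were 1472.5 for T cell, 1577.5 for B and plasma cell, and 1641 for macrophage and dendritic cell markers. Enterocyte, stem cell and stromal markers had 2176.5, 4155.5 and 4162.5. All genes of 500 to under 750 bases gave the order of the core median too (0.12, 1.11, -0.16 and 0.38 in replicates 1 to 4). The part of these cell types in the spread of the core members was not tested.

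The mitochondrial ribosomal proteins, which form the separate ribosome of the mitochondrion, were high and low in the same libraries. All 78 were tested, 0 rose and 0 fell in edgeR's test, and their median log2 fold change was 0.23. Their median deviations were 0.06, 0.57, -0.22 and 0.32 in CPT-11 replicates 1 to 4, beside -0.05, 0.77, -0.42 and 0.38 for the cytosolic core members. The median table length of the mitochondrial set was 1324 bases.

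Many ribosomal protein genes have near-identical processed copies in the genome, and estimated counts divide reads between them. By sequence, 1026 annotated copies with at least 90% identity over at least 50% of the coding sequence were found for 75 members. For 56 members the copies held under 1% of the summed reads, and for 16 they held over 20%. The largest shares were 95.9% for Rpl12, 78.6% for Rpl5, 75.3% for Rpl10 and 63.9% for Rps13. The level of these genes alone is therefore uncertain. For Rps27l the copies held 0.0092%, and adding them left its log2 fold change at 1.07 (adjusted p = 0.0466, edgeR).

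Rps13, an early-assembling protein of the small subunit, had the largest log2 fold change of the core set, 1.41 (SE 0.48, adjusted p = 0.113, edgeR). Its levels were 68.1, 77.8, 93.2 and 75.7 CPM in vehicle and 112, 482, 85.2 and 158 CPM in CPT-11. Its copy Rps13-ps1 was measured at 197, 212, 230 and 213 CPM in vehicle and at 175, 94.7, 133 and 205 CPM in CPT-11. In CPT-11 replicate 2 the gene was thus at its highest and this copy at its lowest of the 8 libraries. The copy Rps13-ps2 went the other way and was at its highest there. It was measured at 31.3, 32.7, 39.0 and 40.6 CPM in vehicle and at 28.9, 150, 25.8 and 55.1 CPM in CPT-11. With the copies added, Rps13 came to 296, 323, 362 and 329 CPM in vehicle and 316, 728, 243 and 418 CPM in CPT-11, and the log2 fold change was 0.38 (adjusted p = 0.438, edgeR).

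Rpl10, which sits at the core of the large subunit and is placed late in its maturation, was measured at 126, 175, 177 and 180 CPM in vehicle and at 211, 444, 189 and 277 CPM in CPT-11. Each CPT-11 library was above each vehicle library, by a narrow margin in replicate 3. Its log2 fold change was 0.77 (SE 0.26, adjusted p = 0.114, edgeR) alone and 0.33 (adjusted p = 0.385) with its copies. Most of the added reads were in Rpl10-ps3, at 577, 599, 687 and 618 CPM in vehicle and 582, 976, 486 and 787 CPM in CPT-11, where the groups overlapped.

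**Figure D5:**
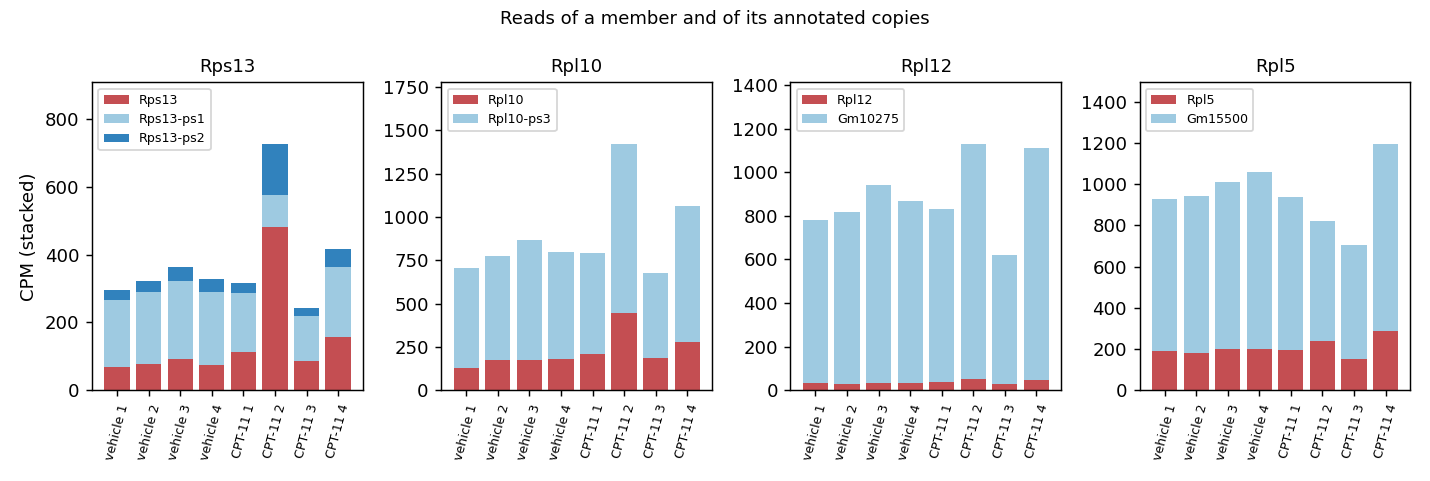
Reads (CPM, stacked) of Rps13, Rpl10, Rpl12 and Rpl5 (red) and of their main annotated copies (blue) in each library. Most reads lie in copies for all 4 genes (63.9% to 95.9% of the sum with every copy), and the part assigned to Rps13 is largest in CPT-11 replicate 2.

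Adding copies changed the rank of some scarce core members and not of others. Per kilobase of table length, the highest vehicle levels were those of Rps2, a small subunit protein near the mRNA entry site (2221 CPM per kb), Rpl41 (2199) and Rplp1 (2165). The lowest were Rpl12 (26.2 CPM per kb), Rps15a (86.9) and Rpl5 (94.2). With copies added, Rpl12, a protein of the stalk base, moved from rank 1 to rank 29 of 76 from the bottom, and Rpl5, which carries 5S ribosomal RNA with Rpl11, from rank 3 to rank 10. Rps15a went from rank 2 to rank 1, and its table length of 5130 bases is far above its coding length of 393.

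None of the stalk proteins, nor Rpsa, passed the test. The stalk, where elongation factors bind, is built from Rplp0, Rplp1 and Rplp2. Rplp0 was measured at 2224 ± 164 CPM in vehicle and 2339 ± 576 CPM in CPT-11 (SD, n = 4 each), a log2 fold change of 0.07 (adjusted p = 0.848, edgeR). The fold changes of Rplp1 and Rplp2 on the same scale were 0.31 and 0.37, with adjusted p-values of 0.452 and 0.447. Rpsa, the small subunit protein also known as a laminin receptor precursor, gave 1685 ± 183 and 2022 ± 723 CPM (log2 fold change 0.26, adjusted p = 0.541).

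Of the ribosomal proteins described to bind Mdm2, Rps27l alone passed the test. Rpl5 and Rpl11, which do so together with 5S ribosomal RNA, had log2 fold changes of 0.18 (adjusted p = 0.556) and 0.07 (adjusted p = 0.856) in edgeR. Rpl11 was at 641, 685, 801 and 704 CPM in vehicle and at 688, 903, 509 and 863 CPM in CPT-11, where replicate 3 was the lowest and replicate 2 the highest of all libraries. Rpl23, Rpl26, Rps14, Rps25 and Rps27a gave estimates from 0.14 to 0.66, none past the threshold. Rps3 and Rps7 had negative estimates, -0.13 and -0.16, which did not pass either. Rps27a, which is made as a fusion with ubiquitin, had the largest of these (SE 0.35, adjusted p = 0.266), with 793 CPM in CPT-11 replicate 2 against 206 to 425 CPM in the other 3 CPT-11 libraries. Mdm2 itself was at 22.6 ± 2.85 CPM in vehicle and 34.6 ± 7.98 CPM in CPT-11 (log2 fold change 0.62, adjusted p = 0.0804). Of 30 listed p53 targets, 14 rose and 0 fell, where 2.98% and 2.52% of all genes did.

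Of 7 ribosomal proteins and close paralogues that the symbol rule misses, 0 passed edgeR's test. The log2 fold change of Fau, the fusion gene of a small subunit protein, was 0.38. Those of Rps3a1 and the scaffold Rack1 were -0.03 and -0.26. Rps27rt, a retrogene of Rps27 measured at 1.75 to 8.23 CPM, had one of -0.40.

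Of 20 translation factors and other TOP genes 0 rose and 0 fell, with a median log2 fold change of 0.05. Among them Eef2, the translocation factor of elongation, was at 3364, 3710, 4088 and 3419 CPM in vehicle and at 2758, 2406, 2736 and 2969 CPM in CPT-11. Its groups did not overlap, but its log2 fold change of -0.42 did not pass the test (adjusted p = 0.165, edgeR). Eif4b, an initiation factor, was likewise lower in each CPT-11 library (-0.47, adjusted p = 0.212), and Npm1, a nucleolar chaperone, had an estimate of 0.44 (adjusted p = 0.145).

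Among 46 genes of ribosomal RNA synthesis and ribosome assembly 3 rose and 0 fell (2.98% and 2.52% of all genes), with a median of 0.24. These were Polr1e, a subunit of RNA polymerase I (log2 fold change 0.73, adjusted p = 0.0265), Gnl3, a nucleolar GTPase (0.62, adjusted p = 0.0393), and Bysl, which acts in small subunit maturation (0.56, adjusted p = 0.0493). Of 16 genes of mTORC1 and TOP control 2 rose and 0 fell (against the same shares of all genes), with a median of -0.12. Sesn2, an inhibitor of mTORC1 and a p53 target, rose by 0.87 on the log2 scale (adjusted p = 0.0261), and Myc, an activator of ribosome synthesis, by 0.60 (adjusted p = 0.0411). The 8 snoRNA host genes, whose transcripts are also of the TOP class, had a median of 0.49, and 0 passed the test. Median table lengths were 1177 bases for the host genes, 2720 for the assembly list and 5564.5 for the mTORC1 and TOP control list. In CPT-11 replicates 1 to 4 the median deviations of the host genes were 0.31, 1.08, -0.20 and 0.52. Those of the mTORC1 and TOP control list were -0.0020, -0.38, -0.0066 and -0.28. The length trend was not removed from these list medians.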

How the data were processed

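RNA sequencing was analysed in 4 vehicle and 4 CPT-11 libraries of unsorted mouse ileal crypt cells. The authors deposited 1 table of estimated counts per gene, which were not normalized; per library, 10.3% to 11.1% of values were fractional (tolerance 0). Bowtie2 2.4.1 and GRCm38.p6 are named per the submitters' processing notes. As to the quantifier, its annotation and strand, these are not given in the sources used, so reads of overlapping genes and of near-identical copies may be divided between them. The 543 rows without a gene name (0.325% to 0.662% of counts) were left out.

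Counts were rounded and fitted with edgeR 4.0.16 in R 4.3.3: TMM scaling, filterByExpr with its defaults (minimum count 10, minimum total 15), robust dispersions and the two-sided quasi-likelihood F test, with no term for replicate number. Benjamini-Hochberg adjustment covered the 14011 tested genes (threshold 0.05). Standard errors were derived from the F statistic. CPM uses the TMM-scaled library size. The script was tested on simulated data. Gene positions and coding sequences came from GENCODE M21, in which 55227 of 55487 named genes were found by identifier. Copies were sought with BLAST 2.17.0 and start windows taken from RefSeq. Gene lengths are those in the deposited table.

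The members and all gene lists were chosen with earlier results of these data known. Genes were named by rule: paralogues with a count, Rps27, members past the threshold, the 3 core members at each end of level per kb and of fold change, Mdm2 binders, stalk proteins and Rpsa, ribosomal proteins outside the symbol rule (1 is not reported here), and up to 3 members of smallest p per list. Alternatives were RLE and upper-quartile scaling, TMM without the members, DESeq2 1.42.0, no filter, 1 CPM in 4 libraries, voom of limma 3.58.1 with or without quality weights, the replicate block, removal of each library's length trend (loess, span 0.5), protein-coding genes alone, named pseudogenes added, CPT-11 replicates 2 and 4 left out, and each library left out. Adding copies by sequence was chosen after seeing the data.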

Additional observations from a re-analysis of the deposited data

Results flagged for a closer look

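Within groups of 4 libraries, 78 groups of named genes were examined for a library far from the others (a gap to the nearest library, as a share of the range, above Dixon's critical value), and 3 were found; chance gives about 1 in 20. The gene Rpl10 was at 126 CPM in vehicle replicate 1, below the other vehicle libraries. Rack1 was at 1599 CPM in vehicle replicate 3, above the others. Rps27rt was at 1.75 CPM in vehicle replicate 2, below the others.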

How the results depend on the processing

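The number of members that rose (1) was 0 when any vehicle library or CPT-11 replicate 1 or 4 was left out, where 0.924% to 1.93% of all genes rose, and 3 without CPT-11 replicate 3 (5.43% of all genes) and in DESeq2; leaving out each library in turn gave 0 to 3. No member fell under any of the 22 alternatives. With each library left out in turn, the log2 fold change of Rps27l ranged from 0.74 to 1.24 and the log2 ratio of Rps27l to Rps27 from 0.78 to 0.91, where 3 against 4 libraries cannot give a permutation p below 0.0571. Without CPT-11 replicates 2 and 4 the ratio was 0.83, at the smallest p its design allows (exact permutation test, 0.133).

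With the replicate block, 0 members rose, 686 genes were called (770 without it), the log2 fold change of Rps27l was 0.98 (adjusted p = 0.0722, edgeR), the Rps27l to Rps27 log2 ratio was 0.86 (exact sign-flip permutation p = 0.125, the smallest 4 pairs allow) and Rps2 had -0.010. Same-numbered libraries deviated together with correlations of 0.31, 0.17, -0.16 and 0.12 for numbers 1 to 4, and the nearest CPT-11 library had the same number for vehicle 1, 2 and 4 but not for 3. Since the correlation for number 3 was not above 0.1, and the labels name no shared litter or day, the numbers were not taken to pair the libraries.

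Of the estimates for named genes, 53 changed sign under an alternative, and none of these passed the test as reported. Without CPT-11 replicates 2 and 4 the values were Fau -0.18, Rpl11 -0.24, Rpl12 -0.017, Rpl23 -0.11, Rpl26 -0.18, Rpl41 -0.052, Rpl5 -0.14, Rplp0 -0.25, Rplp1 -0.16, Rplp2 -0.23, Rps14 -0.27, Rps15a -0.24, Rps2 -0.32, Rps25 -0.20, Rps27 -0.23, Rps27a -0.10 and Rpsa -0.23. With the length trend removed they were Fau -0.058, Rpl11 -0.24, Rpl26 -0.17, Rplp0 -0.12, Rplp1 -0.12, Rps14 -0.20, Rps2 -0.27, Rps25 -0.22 and Rps27 -0.28. With quality weights they were Rpl11 -0.027, Rplp0 -0.087, Rplp2 -0.013, Rps14 -0.024, Rps15a -0.0051, Rps2 -0.12, Rps27 -0.052 and Rps3a1 0.00060. Rps2 was -0.0084 without a filter and -0.0012 in limma-voom, and Rpl5 was -0.11 with copies added. Leaving out each library in turn gave Rpl11 -0.032 to 0.20, Rplp0 -0.051 to 0.19, Rps14 -0.013 to 0.30, Rps15a -0.012 to 0.44, Rps2 -0.13 to 0.16, Rps27 -0.037 to 0.31, Rps3a1 -0.19 to 0.074 and Rps4l -0.28 to 0.016. The cause was not tested.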
